A study of Mus musculus with 5 samples.

Results

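The cyclin-dependent kinase inhibitors are the 7 genes *Cdkn1a*, *Cdkn1b*, *Cdkn1c*, *Cdkn2a*, *Cdkn2b*, *Cdkn2c* and *Cdkn2d*, and they were followed here in the newborn lens with and without *Celf1*. All probes that the platform annotation gives to 1 of these genes were taken, which made 15 of 34885 probes and 7 of 19057 genes. *Cdkn1a*, *Cdkn1b*, *Cdkn2a* and *Cdkn2c* each had 3 probes, and *Cdkn1c*, *Cdkn2b* and *Cdkn2d* each had 1. RNA was profiled at postnatal day 0 on Illumina MouseWG-6 v2.0 arrays, from 3 mutant replicates (A to C) and 2 controls (A and B), with 2 lenses pooled per replicate and 1 array each. Values of each probe are given in the order of these letters. The mutant carried *Celf1* cKO/lacZKI with *Pax6GFPCre*, so that 1 allele was floxed and deleted by a Cre that is active from the lens placode, and the other was a germline *lacZ* allele present in every cell of the animal. The labels call the controls wild type of mixed background. The methods describe, for the study in general, floxed mice without Cre and Cre mice with an intact *Celf1* as controls, and which of these the control arrays hold was not settled. Values are intensities, in arbitrary units, after the authors' background correction and rank-invariant normalization. Values near 0 are background, since no detection p is given.

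Cyclin-dependent kinase inhibitors bind the kinases that drive the cell cycle and hold cells in G1 or out of the cycle. The Cip/Kip family (p21, p27 and p57, encoded by *Cdkn1a*, *Cdkn1b* and *Cdkn1c*) binds cyclin-Cdk complexes broadly, whereas the INK4 family (p16, p15, p18 and p19, encoded by *Cdkn2a*, *Cdkn2b*, *Cdkn2c* and *Cdkn2d*) binds Cdk4 and Cdk6 and keeps them from D-type cyclins. In the lens, epithelial cells leave the cell cycle at the equator as they become fiber cells, and p27 and p57 are known for their part in that exit. Celf1 is an RNA-binding protein that acts on splicing, translation and decay, and the arrays read only the level of RNA.

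Among these 7 genes the difference between mutant and control lay chiefly in *Cdkn1a*. All 3 of its probes rose in the mutant, by 1.64 to 2.80 on the log2 scale. One of 3 probes of *Cdkn2c* fell, by 0.44. The other 5 genes had no probe past the threshold, and their 9 probes lay within a log2 fold change of -0.14 to 0.23. The fold changes come from log2 of the intensity plus 36.5, a constant that puts the lowest value of the table at 16, and they understate the change of dim genes. In bulk lens RNA, fewer cells of a type and less RNA per cell cannot be told apart.

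RefSeq upstream sequence (GRCm38.p6) was matched to 6 of the 7 genes by symbol, in 9 windows of 250 bases that end just before a transcription start, and *Cdkn1c* was not matched. The 2 windows of *Cdkn1a* and the first of *Cdkn2c* are shown because these 2 genes hold the probes past the threshold. In the first *Cdkn1a* window (chr17:29090729-29090978, plus strand) the capitals mark an element of 20 bases that resembles the p53 response element, a pair of decamers to which the transcription factor p53 binds. It lies 51 to 32 bases before the start. In the second *Cdkn1a* window (chr17:29093519-29093768, plus strand) the capitals mark GC boxes (GGGCGG) and a TATA box (TATAA) 25 bases before the start, and in the *Cdkn2c* window (chr4:109666757-109667006, minus strand) they mark GC boxes.
Cdkn1a, start 1: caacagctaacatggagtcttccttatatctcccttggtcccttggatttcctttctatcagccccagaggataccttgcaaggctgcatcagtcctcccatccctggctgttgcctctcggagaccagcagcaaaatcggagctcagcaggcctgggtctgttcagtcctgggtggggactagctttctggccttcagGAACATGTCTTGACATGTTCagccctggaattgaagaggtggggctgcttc
Cdkn1a, start 2: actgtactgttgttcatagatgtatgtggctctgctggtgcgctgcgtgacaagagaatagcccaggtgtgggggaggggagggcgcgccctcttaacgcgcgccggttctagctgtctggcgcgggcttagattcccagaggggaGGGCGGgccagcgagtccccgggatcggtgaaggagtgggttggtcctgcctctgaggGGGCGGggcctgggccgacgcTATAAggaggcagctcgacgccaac
Cdkn2c, start 1: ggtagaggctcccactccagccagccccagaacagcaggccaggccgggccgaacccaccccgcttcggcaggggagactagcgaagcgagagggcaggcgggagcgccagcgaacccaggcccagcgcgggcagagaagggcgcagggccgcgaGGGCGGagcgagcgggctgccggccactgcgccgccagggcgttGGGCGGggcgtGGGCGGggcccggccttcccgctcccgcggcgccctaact

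The p53 search took 2 decamers without a spacer, with the C and G of each core required and at most 1 mismatch elsewhere, on either strand. It was set after the *Cdkn1a* sequence had been seen and is a description only. The element, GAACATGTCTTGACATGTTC, has 1 mismatch. It was found in 1 of the 9 windows, and such an element was found in 19 of 32851 upstream windows of all genes (0.0578%). With no mismatch allowed it was found in 3 of all windows (0.00913%) and in none of the inhibitors. The 19 windows include 18 other genes, of which 8 had a probe on the array that names 1 gene. By their brightest probes 1 of these 8 was called higher and 0 lower, where 5.66% of all 19057 genes were called in either direction, so that nothing about genes with the element is read from this count. The 8 had log2 fold changes of -0.06 to 0.91 and a median of 0.09. *Calhm2*, *Cldn16*, *Olfr1057*, *Olfr1062* and *Sptbn4* had means near background in both groups, so little can be read from them. *Rps27l* (control mean 2842, mutant mean 3263, 0.20, adjusted p = 0.446) and *Mthfd1* (0.12, adjusted p = 0.642) read above background and were not called by limma. The 1 called was *Ccng1*, which encodes cyclin G1 (control mean 1174, mutant mean 2183, log2 fold change 0.91, adjusted p = 0.0304), and it was named after its value was seen. GC boxes (GGGCGG, either strand) were in 5 of the 9 inhibitor windows against 32.7% of all windows, CCAAT was in 2 against 33.8%, and TATAA was in 2 against 22.8%.

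*Cdkn1a* encodes p21, the inhibitor best known as a target of p53 after DNA damage and for a role in cell cycle exit. The study itself singled out this gene on the same arrays, so its rise here is not independent evidence. Besides the arrays, the paper reports raised p21 RNA and protein in the mutant lens. The intensities of its brightest probe were 284.9 (A), 233 (B) and 337.6 (C) in the mutant, against 13.2 (A) and 5.9 (B) in the control. The lowest mutant array stood far above the higher control, and both controls lay near background. The mutant mean was 285 ± 52.3 (SD, n = 3) against a control mean of 9.55 ± 5.16 (SD, n = 2). The log2 fold change was 2.80 (SE 0.14, 95% interval 2.46 to 3.13), a 6.94-fold change on the shifted scale, with an adjusted p of 4.48e-04 by limma over 34885 probes. The ratio rests on a control level near background and therefore on the constant, at 1.81 in log2 with a constant of 100 and 3.56 with a constant of 16.

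The second *Cdkn1a* probe read 130.8, 110.3 and 176.2 in the mutant and 17.2 and 4.7 in the control. The third read 82.1, 62.1 and 138.8 against 5.5 and 2.9. On both, as on the brightest, mutant C was highest and mutant B lowest of the mutants, control A was above control B, and the groups did not overlap. The rises were 1.88 (SE 0.17, adjusted p = 0.00221) and 1.64 (SE 0.21, adjusted p = 0.00697) on the log2 scale by limma. Over the 5 arrays the log2 values of the 3 probes had pairwise Pearson's r of 0.976 to 0.994, as a description over arrays that share the same contrast. All 3 probes were designed to the same RefSeq record, so they are readings of 1 RNA and not replicates. Without control B the third probe no longer passed (log2 fold change 1.60, adjusted p = 0.0834), while the brightest (2.68, adjusted p = 0.0123) and the second (1.69, adjusted p = 0.0326) did.

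**Figure D1:**
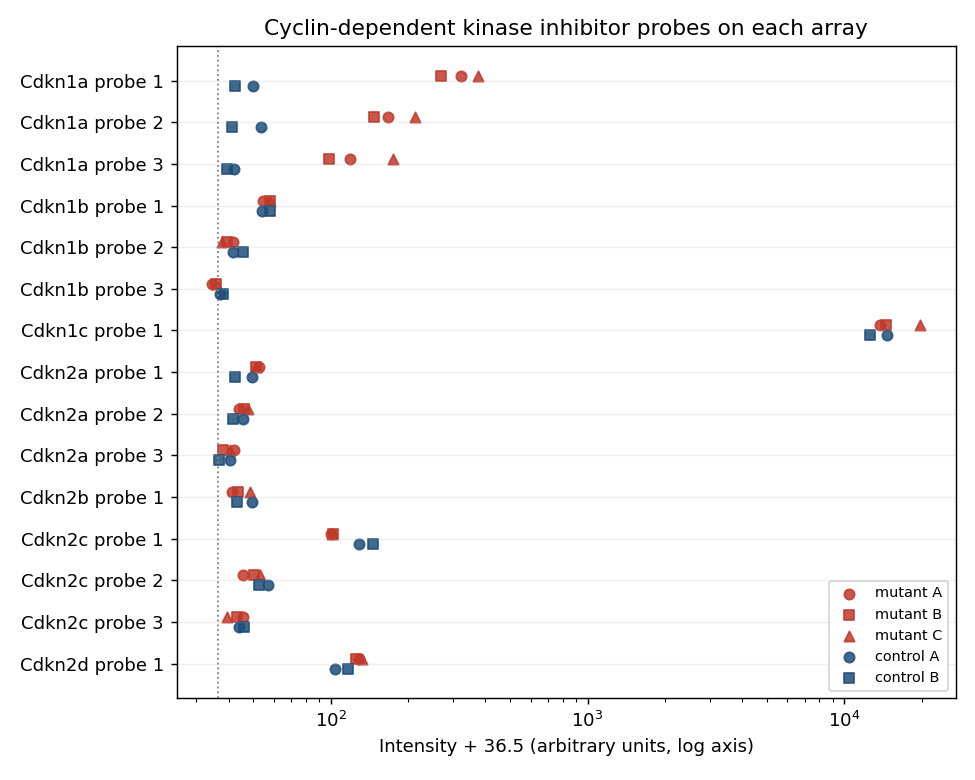
Each row is a probe of a cyclin-dependent kinase inhibitor and each point 1 array, as intensity plus 36.5 (arbitrary units, log axis), with mutant arrays in red and control arrays in blue and the dotted line at an intensity of 0. The 3 *Cdkn1a* probes show a gap between groups, from 233 in mutant B to 13.2 in control A on the brightest, while *Cdkn1c* reads 12572.8 or more on every array with its groups mixed.

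*Cdkn1b* encodes p27, which inhibits Cdk2 with cyclin E or A and holds fiber cells out of the cycle. Its brightest probe read 17.8, 21.3 and 21.6 in the mutant and 17.5 and 21.3 in the control. The groups overlapped at nearly the same level. The log2 fold change of 0.02 had a 95% interval of -0.16 to 0.21 (adjusted p = 0.941, limma). This probe was dim too. Its intensities lay below the added constant of 36.5, which shrinks the fold change and narrows the interval, so a change in this RNA could be missed. The second probe read 5.3, 2.9 and 1.2 against 5.2 and 8.9 (adjusted p = 0.534), and the third read -2, -0.7 and -0.8 against 0.4 and 1.7 (adjusted p = 0.662). Both lay at background, so no RNA level could be read from them, although on the third the mutant arrays were all below the controls. Besides the arrays, the paper reports raised p27 protein in the mutant lens and no significant change of its RNA.

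*Cdkn1c* encodes p57, an imprinted gene that marks cells leaving the cycle in the early fiber zone. It read 13777.8, 14486.7 and 19682.7 in the mutant and 14572.2 and 12572.8 in the control. Its probe was at the 99.9 percentile of the probes of its array or above on all 5 arrays. Mutant C was the highest and control B the lowest, and mutants A and B lay between the controls, so the groups overlapped. The log2 fold change was 0.22 (SE 0.16) with an interval of -0.14 to 0.59 (adjusted p = 0.595, limma). Over 17 alternatives the estimate ran from 0.06, without mutant C, to 0.54, with the level of *Xist* as a covariate. That covariate sets mutant C alone against the controls. The probe was called under none of the alternatives.

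*Cdkn2a* encodes p16Ink4a and, from another reading frame, p19Arf, an inhibitor of Mdm2. Its brightest probe read 16.3, 14.7 and 14.6 in the mutant and 12.9 and 6 in the control, with every mutant array above both controls, and a log2 fold change of 0.17 (interval -0.03 to 0.38, adjusted p = 0.430). The second probe, of a different RefSeq record, read 7.6, 9.3 and 11.2 against 9 and 5 (adjusted p = 0.742). The third, of the same record as the brightest, read 5.5, 1.7 and 3.9 against 3.9 and 0.3 (adjusted p = 0.818). All 3 were dim, and the groups overlapped on the last pair. The upstream windows of *Cdkn2a* and *Cdkn2b* lie near each other on chromosome 4 and both face the minus strand. *Cdkn2b* encodes p15, which is known as a target of TGF-beta signalling, and it read 4.9, 6.9 and 12 against 12.8 and 6.6 (interval of the log2 fold change -0.29 to 0.18, adjusted p = 0.861).

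*Cdkn2c* encodes p18, an inhibitor of Cdk4 and Cdk6. Its brightest probe read 63.5, 65.2 and 64.8 in the mutant and 92 and 109.7 in the control. The mutant arrays lay close together and below both controls. The log2 fold change was -0.44 (SE 0.08, interval -0.64 to -0.24, adjusted p = 0.0301, limma). The other probes did not carry this difference past the threshold. The second, designed to another sequence record, read 8.9, 13.9 and 16.6 against 20.4 and 16 (log2 fold change -0.14, adjusted p = 0.559). The third, of the same record as the brightest, read 9, 6.5 and 3 against 7.6 and 9.4 (-0.08, adjusted p = 0.753). The call was lost under 9 of 17 alternatives. Leaving out mutant A, mutant B, mutant C or control B gave adjusted p of 0.0945, 0.110, 0.0514 and 0.150, and a log2 fold change of -0.45 to -0.35.

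*Cdkn2d* encodes p19Ink4d, the remaining inhibitor of Cdk4 and Cdk6. It read 92.4, 88.6 and 95.5 in the mutant and 67.1 and 80.2 in the control. Every mutant array lay above both controls. The log2 fold change was 0.23 (SE 0.08, interval 0.03 to 0.42), but it did not pass after adjustment (adjusted p = 0.248, limma). Its direction was opposite to that of the brightest *Cdkn2c* probe.

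**Figure D2:**
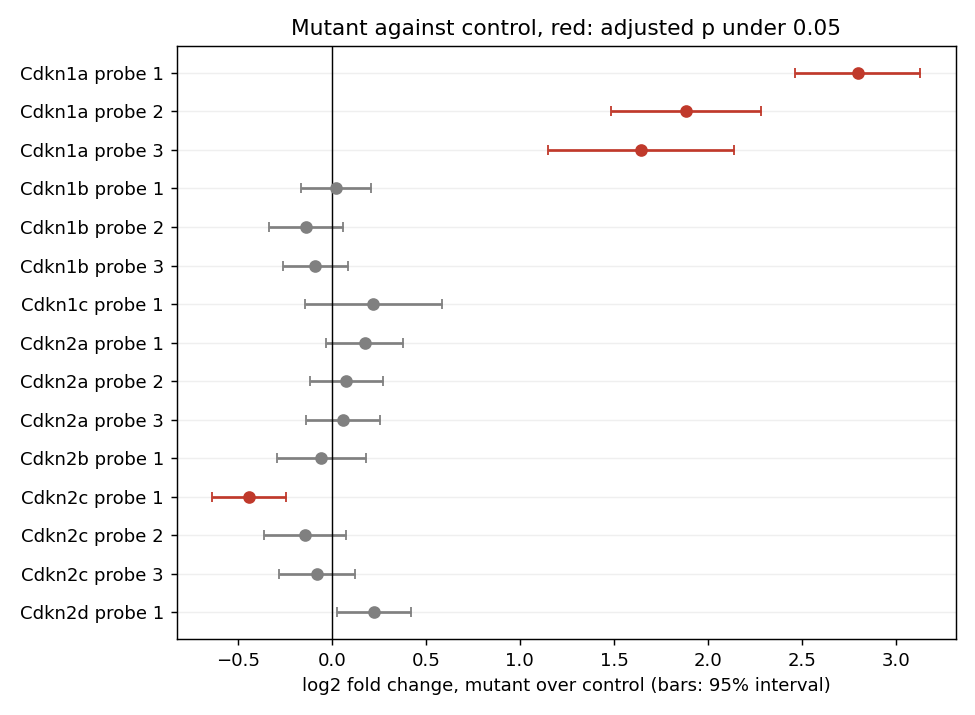
Log2 fold change of mutant over control for each inhibitor probe, with bars for the 95% interval and red for an adjusted p under 0.05. The intervals of the 3 *Cdkn1a* probes start at 1.15 or above, that of the brightest *Cdkn2c* probe ends at -0.24, and those of the rest lie within -0.36 and 0.59.

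Of the 15 probes, 4 were called (26.7%), 3 higher and 1 lower, against 4.28% of all 34885 probes. Over all probes 2.4% were called higher (836) and 1.89% lower (658), and with the level of *Xist* (high or low) as a covariate 896 were higher and 1189 lower. At an unadjusted p under 0.05 there were 5, with *Cdkn2d* as the addition. The 3 arrays of the mutant lay all above or all below both controls on 7 probes (46.7%), 5 higher and 2 lower, against 30.9% of all probes, and the groups overlapped on 8. By brightest probes, 2 of the 7 genes were called, against 5.66% of 19057 genes. Since 3 of the 4 called probes belong to *Cdkn1a*, the shares of called probes and genes rest on 2 genes, while the 7 probes without overlap come from 5 genes. The median log2 fold change over the 15 probes was 0.06, and over all probes it was 0.002. With 3 arrays against 2, an exact permutation test of a single probe has 10 splits and cannot go below p = 0.1.

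The genes that these inhibitors act on, and those that act on them, were followed in 6 lists with 68 different measured genes, each by its brightest probe. Of these 68, 3 were called higher and 1 lower, a share near the 5.66% of all genes called by brightest probes, so the calls describe single genes and not the lists. Their median log2 fold change was 0.01, against -0.003 over all genes. Another 5 listed symbols had no probe in the analysis. *Skp1a* and *Foxo3a* are older names of measured genes, while *Trp53*, which encodes p53, *Mki67* and *Ccnb1* were not read.

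Among the 5 targets of the INK4 proteins, 1 was called higher and 0 lower. *Ccnd2*, which encodes cyclin D2, read 845.4, 848.3 and 866.1 in the mutant and 676.2 and 535.8 in the control (log2 fold change 0.48, SE 0.10, adjusted p = 0.0471). The groups did not overlap, but the call was lost under 11 of 17 alternatives, among them leaving out mutant A (adjusted p = 0.114), B (0.144), C (0.0837) or control B (0.182). With all *Ccnd2* probes averaged, the log2 fold change was 0.25 (adjusted p = 0.182, limma), so its other probes rose less on average than the brightest. Of the 9 measured genes of the list of Cdk2, Cdk1, their cyclins and the Cdk-activating kinase, none was called, and 2 had an unadjusted p under 0.05. These were *Mnat1*, an assembly factor of the Cdk-activating kinase (0.33, adjusted p = 0.191), and *Ccne1*, cyclin E1 (0.28, adjusted p = 0.222). None of the 13 pocket protein and E2F genes was called. The 2 with the smallest p were *E2f6*, a repressor of the E2F family (0.34, adjusted p = 0.133), and *Tfdp2*, a partner of E2F proteins (-0.23, adjusted p = 0.233), and 2 in all had an unadjusted p under 0.05.

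Of the 12 measured genes for ubiquitin ligases that degrade the inhibitors or act in the same machinery, 1 was called higher and 0 lower. *Fzr1*, which encodes Cdh1, the activator of the anaphase-promoting complex in G1, read 1383.2, 1274.1 and 1575.1 in the mutant and 820.4 and 735.8 in the control. The lowest mutant array stood well above the higher control, and the log2 fold change was 0.83 (SE 0.11, adjusted p = 0.00697, limma). Of 16 measured transcriptional regulators of the inhibitors, 1 was called higher and 0 lower. *Mdm2*, which encodes the ubiquitin ligase of p53 and is itself a p53 target, read 621.9, 633.8 and 780.6 against 413.7 and 375.5 (log2 fold change 0.72, SE 0.11, adjusted p = 0.0132). Both genes lost the call without control B (*Fzr1* adjusted p = 0.0713, *Mdm2* adjusted p = 0.119), with log2 fold changes of 0.75 and 0.66. Averaged over all probes of the gene, *Mdm2* rose by only 0.50 (adjusted p = 0.0184) and *Fzr1* by 0.835 (adjusted p = 0.01355), and both stayed called. Just short of the threshold, and named after their values were seen, were *Prox1*, a homeobox factor of fiber differentiation known to act upstream of *Cdkn1b* and *Cdkn1c* (-0.35, adjusted p = 0.0542), and *Ezh2*, a histone methyltransferase that represses *Cdkn2a* (-0.53, adjusted p = 0.0656).

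Among 13 measured genes of DNA replication and cell division, 0 were called higher and 1 lower. *Plk1*, a kinase of mitosis, read 65.6, 51 and 72.8 in the mutant and 122.3 and 106.8 in the control (log2 fold change -0.60, SE 0.11, adjusted p = 0.0260). Its groups did not overlap. The call was lost under 8 of 17 alternatives, among them the *Xist* covariate (-0.46, adjusted p = 0.104), constants of 16 (0.0510) and 100 (0.0551), and leaving out mutant A (0.0604), mutant B (0.0695), control A (0.103) or control B (0.105). The other 12 had log2 fold changes of -0.08 to 0.31, with a list median of 0.06. *Pcna*, the sliding clamp of replication, read 12.7, 8.4 and 8.8 against 7.9 and 1.5 (adjusted p = 0.459, limma). These values lay near background, so whether its RNA changed could not be read. *Top2a*, a topoisomerase of dividing cells, read 92.1, 82.2 and 112.2 against 87.6 and 103 (adjusted p = 0.988, limma). *Pcna* and *Top2a* were named as examples after their values were seen. At an unadjusted p under 0.05, 1 INK4 target was higher and 1 lower, 4 ubiquitin ligase genes were higher and 0 lower, 1 transcriptional regulator was higher and 3 lower, and 0 replication and division genes were higher and 1 lower.

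**Figure D3:**
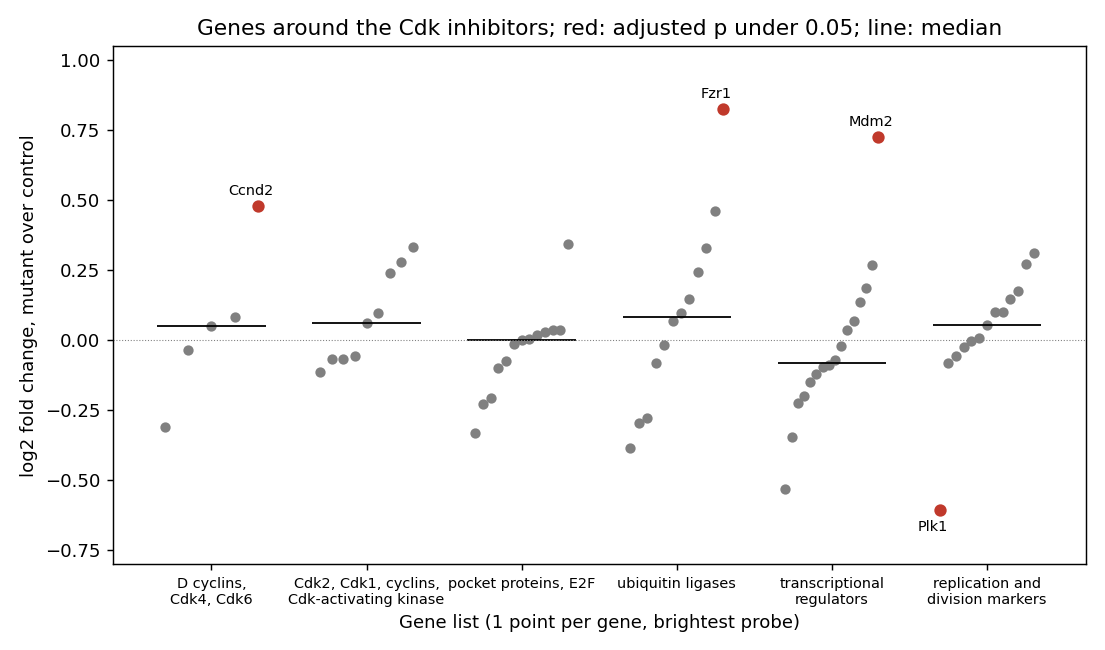
Each point is 1 gene by its brightest probe, placed by list on the horizontal axis and by log2 fold change of mutant over control on the vertical axis, with red for an adjusted p under 0.05 and a line for the median of the list. *Fzr1* (0.83), *Mdm2* (0.72) and *Ccnd2* (0.48) stand at the top of their lists, *Plk1* (-0.60) stands at the bottom of its list, and the medians lie between -0.08 and 0.08.

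*Celf1* itself read 167.4, 172.7 and 154.2 on the mutant arrays and 515.7 and 460.7 on the controls by its brightest probe (log2 fold change -1.38, SE 0.09, adjusted p = 6.06e-04), and a probe of another record read higher in the mutant (0.47, adjusted p = 0.121). The lens fiber markers *Lim2* and *Bfsp2* were called lower (2 of 4 measured), and the list summed to 60118 to 63428 in the mutant and 71445 to 77917 in the control. Red blood cell markers summed to 2632 to 8280 in the mutant, highest on mutant A, and 2535 to 3500 in the control, with 0 of 3 called and 0 at an unadjusted p under 0.05. Sums for skeletal muscle (at most 10.1), retina (at most 31.1), leukocytes (at most 36.1) and cornea and mesenchyme (at most 26.6) were near background in both groups, and those for pigment cells (42 to 144) and blood vessels (325 to 363) had overlapping groups. *Xist*, which is transcribed from the inactive X, was at background in mutants A and B (-0.3 and -0.9) but not in mutant C (263.5) or the controls (432.4 and 440.6). *Eif2s3y*, a gene of the Y chromosome, read 206.9 and 177.3 in mutants A and B, 4.4 in mutant C, and 2.5 and 1.1 in the controls. By these genes mutants A and B read as male, and mutant C and both controls as female, so sex is partly confounded with every difference between the groups. With *Xist* as a covariate, which sets mutant C against both controls, the brightest *Cdkn1a* probe rose by 3.03 (adjusted p = 3.53e-04) and that of *Cdkn2c* gave -0.44 (adjusted p = 0.0867). The part of the fiber and red cell markers in these results was not tested.

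Over the 5 arrays, the genes whose probes followed the brightest *Cdkn1a* probe most closely were sought among 933 probes with a range of at least 1 in log2 (811 genes). They were *Itpk1* (Pearson's r 0.9993), an inositol phosphate kinase, *Eif1ad* (0.9979), *Rbks* (0.9977), ribokinase, *Fam216a* (0.9974) and *Mff* (0.9973), a mitochondrial fission factor. The most opposite were *Lgsn* (-0.9992), which encodes lengsin, a lens protein of the glutamine synthetase family, *Slc46a3* (-0.9977), *Lrrc75b* (-0.9976), *Scnn1b* (-0.9974), a subunit of the epithelial sodium channel, and *Sall1* (-0.9974), a zinc finger transcription factor. *Itpk1* read 987.9, 912.2 and 1046.7 in the mutant and 496.1 and 484.6 in the control, in the same order over the arrays as *Cdkn1a*. *Lgsn* read 14.7, 20.7 and 7.3 against 148.1 and 186.1, in the reverse order. These points share the contrast between groups, so the correlations are a description with no test.

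**Figure D4:**
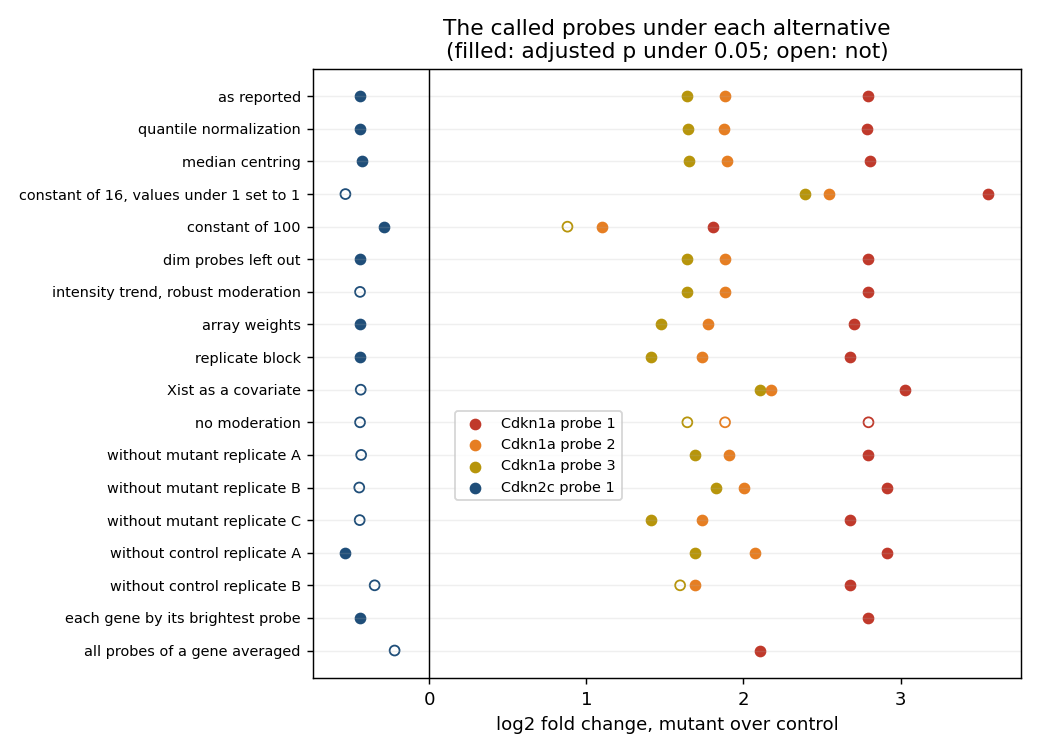
Log2 fold change of mutant over control for the 4 called inhibitor probes on the horizontal axis, with 1 line for each way of processing the data, filled points for an adjusted p under 0.05 and open points otherwise. The brightest *Cdkn1a* probe lies between 1.81 and 3.56 and is open only without moderation of the spread, and the brightest *Cdkn2c* probe lies between -0.53 and -0.22 and is open under 9 of 17 alternatives.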

How the data were processed

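Before deposition the authors subtracted background from the Illumina array data with lumi, applied rank-invariant normalization, and deposited linear intensities for 45281 probes per array. The lumi version was not given in the sources used here. Because the lowest intensity was -20.5, a constant of 36.5 was added before log2. The platform annotation assigns a single gene to 34885 probes, more than 1 to 18 and no gene to 10378, and only the single-gene probes were tested. No further normalization and no filter were applied. The contrast of mutant with control was fitted in limma 3.58.1 under R 4.3.3 with lmFit and eBayes (two-sided, without a block), and p-values were adjusted by Benjamini-Hochberg over 34885 probes at a threshold of 0.05. The number of arrays limits the precision.

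The members, the lists, the lookups and the alternatives were chosen with earlier results of these data known. Named genes are all member probes, *Celf1*, *Xist*, in each list the called genes or else the 2 with the smallest p, and the 5 probes most like and 5 most opposite to the brightest *Cdkn1a* probe. *Prox1*, *Ezh2*, *Pcna*, *Top2a* and *Ccng1* fall outside this rule and were named after their values were seen, as were the marker genes and *Eif2s3y*. So were *Cdk6*, *Ccnb2*, *Rbl2* and *E2f8*, as dim examples, and the other genes with the p53 element. The search for p53 elements was set after the *Cdkn1a* sequence was seen. Marker lists covered red blood cells, lens fiber, lens epithelium, skeletal muscle, retina, leukocytes, cornea and mesenchyme, blood vessels, and pigment cells. Lens epithelium markers summed to 138 to 209 in the mutant and 238 to 260 in the control, with 0 of 3 called and 1 at an unadjusted p under 0.05. Most of the sum came from the gene *Cdh1* (not the protein encoded by *Fzr1*), at 95.4 to 177.1 in the mutant against 210.6 and 205.5. *Foxe3* overlapped between the groups (log2 fold change 0.04). *Pax6*, the 1 at an unadjusted p under 0.05, was near background (2.7 to 10.6). In simulated data of the same size (34885 probes), the fit recovered 95 of 100 probes with a log2 change of 1. It recovered 100 of 100 with a change of 2, and made 8 false calls. The changes were placed only in probes above the median control level. Spreads were drawn from the fit's own model, with no sex difference between arrays. The simulation checks the code and does not give the power or error rate for these arrays or for dim probes. Alternatives changed the normalization, the constant, the dim-probe filter, the choice of probe, the moderation, the array weights, a block, an *Xist* covariate and the arrays included. Plots used matplotlib 3.10.9 under Python 3.11.15.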

Additional observations from a re-analysis of the deposited data

How the results depend on the processing

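The probe counts have no value when each gene is read by its brightest probe or by the average of its probes. No called value changed direction under any alternative tried. Of the 15 inhibitor probes, 4 were called as reported, 2 to 4 leaving out each array in turn (2 without control B) and 0 without moderation of the spread. By brightest probes, 2 of the 7 genes were called, and 1 with a constant of 16, with the probes of a gene averaged, with an intensity trend and robust moderation, and with *Xist* as a covariate, 0 without moderation, and 1 to 2 leaving out arrays (2 only without control A). Of the pathway genes 4 were called, and 2 with a constant of 16, 7 with the *Xist* covariate, 0 without moderation and 0 to 5 leaving out arrays (0 without control B, 5 without control A). Over all probes 1494 were called, and 890 with a constant of 16, 4 without moderation and 420 to 1494 leaving out arrays (728 without mutant B, 420 without control B). The third *Cdkn1a* probe also missed the threshold with a constant of 100 (0.88, adjusted p = 0.0692), and without moderation the adjusted p of the 3 *Cdkn1a* probes was 0.195, 0.231 and 0.304. The cause of these changes was not tested, beyond the loss of an array or of the shared spread that the setting itself makes. With the replicate letter as a block, 4 probes and 2 genes of the inhibitors were called, and 2227 of all probes. The brightest *Cdkn1a* probe gave 2.68 (adjusted p = 2.14e-07, limma). Letter C holds only mutant C, so the block takes that array out of the contrast, and the estimate equals that without mutant C (2.68). Little residual spread is left in this fit, so its smaller p and larger counts are not read as stronger evidence. Deviations of same-lettered arrays correlated at r of 0.002 and 0.019, so the letters were not taken to pair the arrays. The table holds no detection p and the controls read *Cdkn1a* near background, which limits the size of its fold change.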
